A study of Homo sapiens with 12 samples.

Results

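The small nuclear RNAs (snRNAs) of the 2 human spliceosomes were followed through RNA immunoprecipitation sequencing (RIP-seq) of HuH-7, a cell line established from a human hepatoma. The members are a list of names, 6 genes of the major spliceosome (RNU2-2P, RNU4-1, RNU4-2, RNU5A-1, RNU5B-1 and RNU5E-1) and 4 of the minor spliceosome (RNU4ATAC, RNU6ATAC, RNU11 and RNU12), with no threshold on their values. All 10 were among the 57773 Ensembl genes counted, and all 10 were among the 22984 that passed the filter on low counts. The study asked which RNAs are recovered with HuR, the RNA-binding protein encoded by ELAVL1, and with a SUMOylation mutant of it.

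There were 4 groups of 3 libraries. Mutant RIP is RNA recovered with V5-tagged HuR from the line that expresses HuR(K120/182R), in which a pair of lysines is changed to arginine, and WT RIP is RNA recovered in the same way from the line that stably overexpresses V5-tagged wild-type (WT) HuR. Mutant input and WT input are the total RNA of the same lines. The labels do not say whether each line is 1 clone, whether the cells' own HuR was kept, or whether replicates came from separate cultures, so the spread that the p-values rest on is that of these libraries and may be technical. RNA that sticks to beads without HuR was not analysed here. The RNA that entered a library was 16 to 77 ng for precipitates and 250 ng for every input, and its amount and precipitation cannot be told apart. Gene counts summed to 31774994 to 73149117 per library. The 10 hepatocyte markers checked, albumin among them, summed to 5438 to 5852 CPM (counts scaled to the size of the library, here the sum of all counts) in mutant RIP, 8589 to 11101 in WT RIP, 5348 to 5519 in mutant input and 8446 to 11818 in WT input. In the same groups 8 immune markers summed to 13.9 to 15.3, 10.9 to 15.4, 6.60 to 8.20 and 6.29 to 9.66 CPM, and 7 stromal and endothelial markers to 2.46 to 2.88, 2.02 to 2.70, 1.71 to 2.24 and 1.80 to 3.10 CPM. In each of 3 groups 1 immune marker was at 0 in every library (PTPRC in mutant RIP, NKG7 in WT RIP and mutant input), and likewise COL1A1 in WT RIP and mutant input and CDH5 in mutant RIP and mutant input. The part of such cells in the results was not tested.

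Spliceosomes remove introns with the help of small ribonucleoprotein particles, each built on an snRNA. In the major spliceosome U1 finds the 5′ splice site, U2 pairs with the branch point, U4 delivers U6, and U5 holds the exons. The minor spliceosome removes a small class of introns with U11, U12, U4atac and U6atac in the places of U1, U2, U4 and U6, and shares U5 with the major one. Except for U6 and U6atac, these RNAs carry a ring of Sm proteins on a U-rich single-stranded site. HuR is known for binding U-rich and AU-rich stretches of mRNAs.

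The sequences are those of the GENCODE transcripts on GRCh37, written as DNA, 5′ to 3′. The 4 shown are counterparts in the 2 spliceosomes, the listed U2 and U12 genes and a U4 and the U4atac gene. Among them are the members with the lowest and the highest fold change. RNU2-2P lies at chr11:62609091-62609281 on the - strand, RNU12 is shown for the RNA at chr22:43011250-43011399 on the + strand, RNU4-1 lies at chr12:120730900-120731040 on the - strand, and RNU4ATAC at chr2:122288457-122288583 on the + strand. Capitals mark ATTTTTG, the letters searched for as an Sm-like site.
RNU2-2P: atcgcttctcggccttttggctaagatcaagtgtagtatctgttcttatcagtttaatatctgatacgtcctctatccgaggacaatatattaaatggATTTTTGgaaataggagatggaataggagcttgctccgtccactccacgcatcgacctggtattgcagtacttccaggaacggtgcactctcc
RNU12: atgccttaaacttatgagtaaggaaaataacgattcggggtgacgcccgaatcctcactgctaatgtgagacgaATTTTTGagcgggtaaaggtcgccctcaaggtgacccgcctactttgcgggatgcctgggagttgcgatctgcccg
RNU4-1: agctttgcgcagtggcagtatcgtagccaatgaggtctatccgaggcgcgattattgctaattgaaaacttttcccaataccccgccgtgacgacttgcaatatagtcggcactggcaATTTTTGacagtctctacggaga
RNU4ATAC: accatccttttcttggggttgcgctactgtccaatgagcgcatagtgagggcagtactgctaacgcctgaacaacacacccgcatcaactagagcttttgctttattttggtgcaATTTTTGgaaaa
The letters ATTTTTG or, with 1 more T, ATTTTTTG were present in 6 of the 7 members searched, with RNU6ATAC as the exception. They were present in 124 of the 1912 genes of class snRNA (6.49%), and on the opposite strand in 61 of them (3.19%) and in 0 of these members. T made up 24.0% (RNU12) to 31.4% (RNU2-2P) of their bases. RNU4-2 was 97.2% identical to RNU4-1, whereas RNU4ATAC was 57.7% identical to RNU4-1 and RNU12 was 53.5% identical to RNU2-2P. RNU11 (chr1:28975112-28975242, + strand) and RNU12 are not named in the annotation used here and were placed by their neighbours, TAF12 and GMEB1 for RNU11 and POLDIP3 and CYB5R3 for RNU12, and by likeness to named copies (up to 87.1% and 90.4%).

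Several members share their place with another gene. RNU2-2P lies wholly in an exon of WDR74 on the same strand, and its count was 97.2% to 99.9% of that of WDR74 in each library, so the counts of this pair are 1 measurement. Reads counted for both genes would give such near-equal counts. The files do not say how reads that fit several copies were counted. In each library U1 copies nearly repeated the count of RNU1-1, at 98.5% to 100% for RNU1-4 and 97.4% to 99.4% for RNU1-27P. Reads counted in full for each copy would give this, and other ways of counting were not tested. The U2, U4 and U5 values below may thus repeat reads of near-identical copies and are uncertain to that extent. RNU4ATAC lies in introns of CLASP1, on the opposite strand, and of CLASP1-AS1, which had 0 to 19 counts. RNU5A-1 lies in an intron of PARP16 on the opposite strand, and RNU5E-1 in an exon of a noncoding gene, ENSG00000285646, that was not among the genes counted. The counted interval of RNU12 was 664 bases long, of which the RNA is the first 150, and 178 of its bases lie in exons of CYB5R3 and 258 in exons of ENSG00000289517, which was not counted, both on the opposite strand. CYB5R3 was at −2.15 ± 0.17 on the log2 scale in mutant RIP over mutant input and −1.86 ± 0.17 in WT RIP over WT input, and its part in the values of RNU12 was not tested.

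Members differed widely in level. CPM from here on are scaled by TMM, the trimmed mean of M values. It gives each library 1 scaling factor on the premise that most genes do not differ, and does not make their composition alike. The factors ran from 1.32 to 1.78 in precipitates and from 0.526 to 0.909 in inputs. In such CPM per kilobase, RNU2-2P was first in every group, at 11847 ± 3815 in mutant RIP, 7446 ± 2754 in WT RIP, 160926 ± 15057 in mutant input and 126997 ± 55047 in WT input (SD, n = 3 each). RNU4-2 and RNU4-1 followed, then the U5 genes, RNU11 and RNU6ATAC, with RNU4ATAC and RNU12 last. In both precipitates RNU2-2P overlapped RNU4-2, its neighbour in that order, whereas in both inputs it did not. RNU4ATAC stood above RNU12 in mutant RIP and WT RIP, with overlap in mutant RIP, and below it in mutant input and WT input, with overlap in WT input. Over the 150 bases of its RNA, RNU12 would reach 385 ± 88.4 in mutant RIP, 252 ± 74.5 in WT RIP, 402 ± 31.4 in mutant input and 317 ± 177 in WT input, so its place rests on the length used. These libraries were not made for small RNAs, and recovery by length was not measured.

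**Figure D1:**
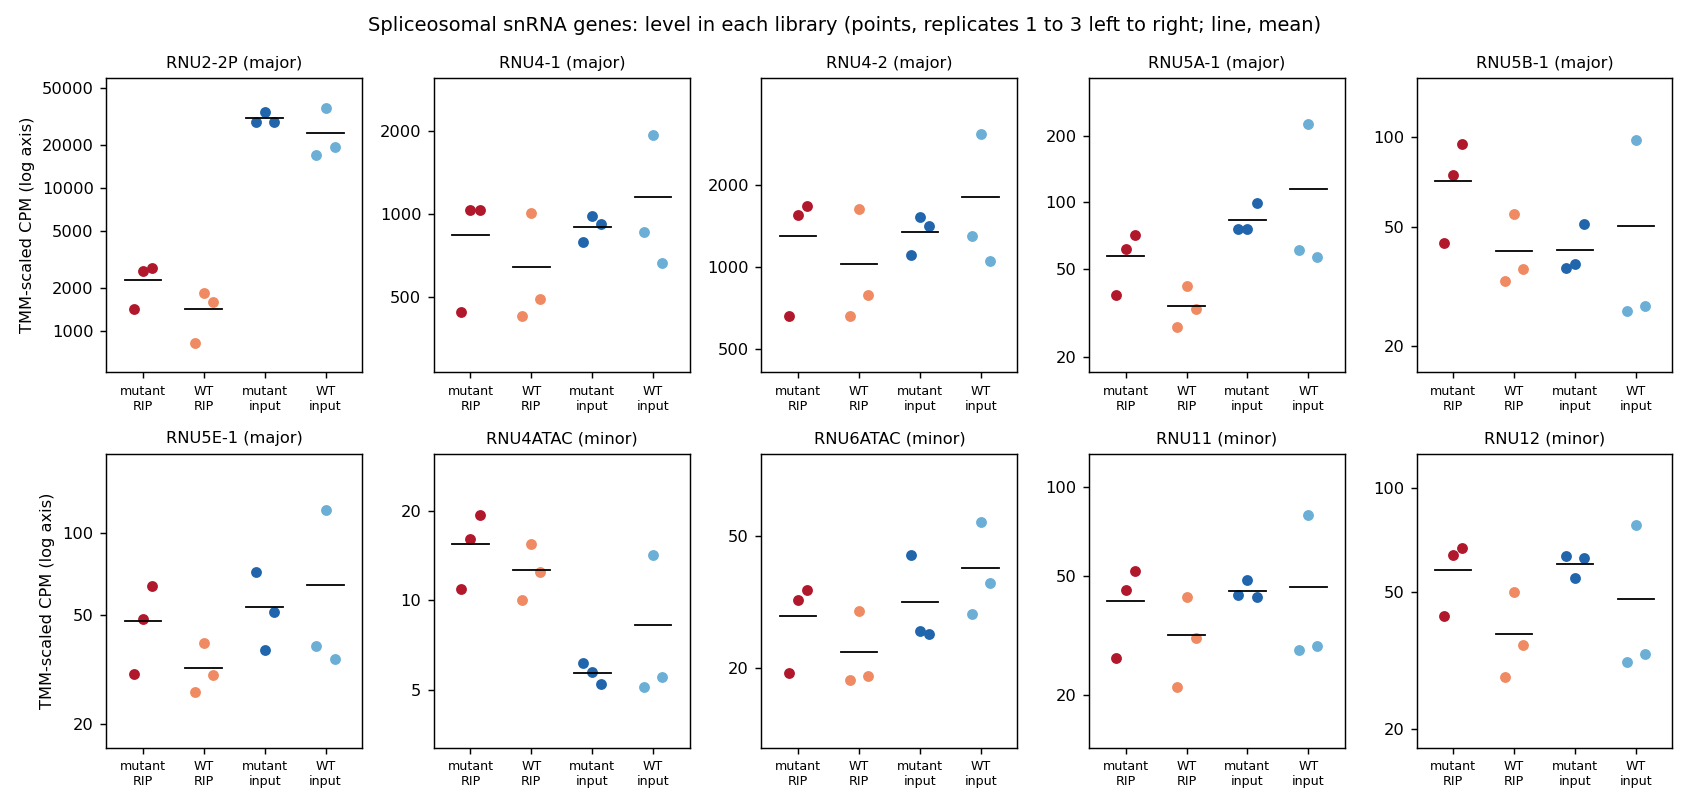
Level of each of the 10 snRNA genes in TMM-scaled CPM (log axis, a different range in each panel) in mutant RIP, WT RIP, mutant input and WT input; points are libraries 1 to 3 from left to right and the line is the mean. RNU2-2P is lower in all 6 precipitates than in all 6 inputs, RNU4ATAC is higher in all mutant RIP libraries than in all mutant inputs, and WT input 2 is the highest WT input in every panel.

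Some libraries stood apart from their group. WT input 2 was above both other WT inputs for all 10 members, by 1.69 to 3.88 times their mean, with a median of 2.64. WT RIP 2 was above both other WT precipitates for all 10, by 1.37 to 2.24 times, with a median of 1.59. Mutant RIP 1 and WT RIP 1 were below the other libraries of their group for all 10 members, at a median of 0.545 and 0.692 times the mean of the others. Each member's value in WT RIP over WT input is therefore also given without WT input 2. That library was picked from these same values, and leaving it out raises the value of every member. WT RIP 2, also above its group for all 10, was kept. The values without WT input 2 therefore describe the weight of 1 library and give no separate support.

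Of the major spliceosome genes, RNU2-2P was much lower in the precipitates than in the inputs of both lines. Among the U4 and U5 genes RNU5A-1, in the WT line, was the one that passed the test. Of the minor ones, U4atac was higher in the mutant precipitate than in its input. In mutant RIP over mutant input edgeR's quasi-likelihood test (adjusted p under 0.05 over all genes tested) called 1 of 10 members higher and 1 lower, where 29.0% of the 22984 genes were called higher and 28.0% lower, 57.0% in all. In WT RIP over WT input it called 0 higher and 2 lower, where 25.6% of genes were called higher and 25.4% lower, 50.9% in all. DESeq2 gave the same numbers of members. Without a higher call in WT, 3 members had an unadjusted p under 0.05, RNU2-2P, RNU5A-1 and RNU6ATAC, and all of these estimates were negative. The members' median log2 fold change was −0.11 in mutant RIP over mutant input and −0.83 in WT RIP over WT input, against 0.07 and 0.06 for all genes. In WT the median was −0.93 over the 6 major and −0.43 over the 4 minor members, and without WT input 2 it was −0.21 and 0.20, against 0.12 for all genes. The 135 tested genes of class snRNA had a median of 2.02 in the mutant line, with 71 called higher and 28 lower, and of 1.19 in the WT line, with 55 called higher and 29 lower. This class holds copies with nearly the same counts, such as U1 copies called lower, so its genes are not separate observations. RNU11 and RNU12 are outside it in the annotation. Where the 2 lines are compared below, bulk RNA cannot tell fewer cells with an RNA from less of it per cell.

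RNU2-2P, the U2 gene of the list, had 1425, 2617 and 2747 CPM in mutant RIP libraries 1, 2 and 3, against 29067, 34058 and 29086 CPM in mutant input. It had 832, 1841 and 1594 CPM in WT RIP, against 17086, 36326 and 19357 CPM in WT input. Every precipitate was far below every input. The log2 fold change was −3.76 ± 0.35 (SE; adjusted p = 3.54e-09) in mutant RIP over mutant input and −4.09 ± 0.35 (adjusted p = 2.18e-09) in WT RIP over WT input, in edgeR's test. It was −3.67 ± 0.30 in WT without WT input 2, and it was called lower under all scalings tried. WDR74, whose exon holds the gene, gave −3.74 ± 0.34 and −4.07 ± 0.35. RNU1-1, a U1 gene outside the list and the major counterpart of RNU11, was lower too, at −2.37 ± 0.36 (adjusted p = 1.17e-05) in mutant and −2.56 ± 0.36 (adjusted p = 6.61e-06) in WT on the log2 scale. Counts of the next 5 U1 copies were 97.4% to 100% of those of RNU1-1 in each library, so they are 1 measurement as well.

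The U4 genes RNU4-1 and RNU4-2 encode the RNA that escorts U6 into the spliceosome. RNU4-2 had 661, 1557 and 1683 CPM in mutant RIP, against 1106, 1526 and 1414 CPM in mutant input, and 663, 1631 and 793 CPM in WT RIP, against 1309, 3084 and 1059 CPM in WT input. Precipitates and inputs overlapped in both lines. The log2 fold change of RNU4-2 was −0.05 ± 0.52 (adjusted p = 0.94) in mutant and −0.82 ± 0.53 (adjusted p = 0.231) in WT, and that of RNU4-1 was −0.10 ± 0.51 and −0.85 ± 0.51, neither called. The WT values were −0.19 for RNU4-2 and −0.23 for RNU4-1 without WT input 2, and −1.32 and −1.33 without WT RIP 2, none of them called. Library 2 was the highest in both WT RIP and WT input. In edgeR fits that also took up the replicate number, both genes were called lower in WT. RNU4-2 was at −0.81 (adjusted p = 0.019) and RNU4-1 at −0.84 (adjusted p = 0.0163). With the number taken within each line they were at −0.77 and −0.80 (adjusted p = 0.000499 and 0.000368). The labels do not say that these numbers mark pairs. Both genes are near-identical and may hold the same reads, so their values are not separate observations. Within a library RNU4-1 had 65.0% ± 3.08 of the counts of RNU4-2 in mutant RIP, 62.7% ± 1.52 in WT RIP, 67.1% ± 3.80 in mutant input and 63.8% ± 1.50 in WT input (SD, n = 3 each), and the groups overlapped.

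The 3 U5 genes did not move alike. RNU5A-1 had 37.9, 61.3 and 71.5 CPM in mutant RIP, against 75.4, 75.5 and 99.4 CPM in mutant input, and 27.3, 41.7 and 32.8 CPM in WT RIP, against 60.7, 227 and 56.6 CPM in WT input. In these TMM-scaled CPM all precipitates were below all inputs of their line. The log2 fold change was −0.55 ± 0.53 (adjusted p = 0.413) in mutant and −1.76 ± 0.55 (adjusted p = 0.0261) in WT in edgeR's test. With total library size edgeR called RNU5A-1 higher in mutant (0.73, adjusted p = 0.000569) and lower in WT (−0.58, adjusted p = 0.00677). The medians of all genes were then 1.38 and 1.12, so its direction in mutant rests on the scaling. Leaving out WT RIP 1 or WT RIP 3 ended the WT call at values of −1.62 and −1.73 (adjusted p = 0.0834 and 0.0759). Without WT input 2 the WT value was −0.77 ± 0.21 (adjusted p = 0.0052), and RNU5A-1 was then called lower in the mutant line as well (−0.56 ± 0.19, adjusted p = 0.0165). PARP16, whose intron holds RNU5A-1, was lower too in TMM-scaled CPM. It was at 4.02 to 4.45 CPM in mutant RIP against 5.54 to 7.77 in mutant input, and 4.57 to 5.74 in WT RIP against 6.09 to 8.20 in WT input. Its part in the result was not tested.

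RNU5B-1 had 44.1, 74.2 and 94.7 CPM in mutant RIP, against 36.5, 37.7 and 51.1 CPM in mutant input. In the WT line it had 33.0, 55.2 and 36.3 CPM in WT RIP, against 26.3, 97.6 and 27.3 CPM in WT input. The groups overlapped in both lines, in WT through input 2 alone. Its log2 fold change was 0.76 ± 0.54 (adjusted p = 0.265) in mutant and −0.28 ± 0.54 (adjusted p = 0.702) in WT. Without WT input 2 it was 0.75 ± 0.27 (adjusted p = 0.0312) and 0.65 ± 0.30 (adjusted p = 0.104). RNU5E-1 lay between these genes, at −0.18 ± 0.52 (adjusted p = 0.795) in mutant and −1.01 ± 0.53 (adjusted p = 0.145) in WT, and at −0.17 ± 0.33 (adjusted p = 0.712) in WT without WT input 2. Of its CPM in the mutant line, 30.3, 48.2 and 63.5 in RIP and 71.9, 37.4 and 51.4 in input, the highest was mutant input 1.

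RNU4ATAC, the U4atac gene, had 10.9, 16.1 and 19.4 CPM in mutant RIP, against 6.14, 5.74 and 5.23 CPM in mutant input. It had 10.03, 15.4 and 12.4 CPM in WT RIP, against 5.09, 14.2 and 5.51 CPM in WT input. All mutant precipitates were above all mutant inputs, and in WT only input 2 reached into the range of the precipitates. The log2 fold change was 1.43 ± 0.40 (adjusted p = 0.0125) in mutant, called higher under all scalings and with any 1 library left out, and 0.62 ± 0.39 (adjusted p = 0.215) in WT, in edgeR's test. Without WT input 2 the WT value was 1.27 ± 0.21 (adjusted p = 1.61e-05). With total library size and all libraries it was 1.75 (adjusted p = 2.32e-14), where the median of all genes was 1.12 and 15761 genes were called higher. Relative to the median of all genes it was at 0.63 with that scaling, against 0.56 with TMM. CLASP1, whose intron holds the gene on the other strand, was higher as well, with 127, 136 and 132 CPM in mutant RIP against 28.7, 34.3 and 36.3 in mutant input and 84.2, 97.2 and 95.7 CPM in WT RIP against 30.9, 33.0 and 32.6 in WT input. Its log2 fold change was 1.99 ± 0.12 in mutant and 1.52 ± 0.12 in WT, and its part in the values of RNU4ATAC was not tested.

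The other minor spliceosome RNAs did not pass the test in either line. RNU6ATAC, which forms the catalytic core of that spliceosome, had 19.3, 32.1 and 34.4 CPM in mutant RIP, against 43.7, 25.8 and 25.3 CPM in mutant input, and 18.4, 29.8 and 18.9 CPM in WT RIP, against 29.1, 55.2 and 36.1 CPM in WT input. Mutant input 1 was the highest in its line, and the groups overlapped in both. Its log2 fold change was −0.14 ± 0.35 (adjusted p = 0.75) in mutant and −0.84 ± 0.35 (adjusted p = 0.0719) in WT; the WT value was called without WT RIP 2 (−1.11, adjusted p = 0.0419), without mutant RIP 1 (−0.85, adjusted p = 0.0497) or without WT input 1 (−0.998, adjusted p = 0.0481), and was −0.53 ± 0.32 (adjusted p = 0.207) without WT input 2.

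RNU11 and RNU12 encode the pair of RNAs that recognise minor introns. RNU11 had 26.6, 45.0 and 52.2 CPM in mutant RIP, against 43.3, 48.5 and 42.8 CPM in mutant input, and 21.3, 42.7 and 31.2 CPM in WT RIP, against 28.3, 80.4 and 29.2 CPM in WT input. RNU12 had 42.6, 63.8 and 67.03 CPM in mutant RIP, against 63.4, 54.8 and 62.5 CPM in mutant input, and 28.2, 50.05 and 34.9 CPM in WT RIP, against 31.2, 78.2 and 33.1 CPM in WT input. Precipitates and inputs overlapped for both. The log2 fold changes were −0.12 ± 0.46 and −0.53 ± 0.46 for RNU11 and −0.06 ± 0.38 and −0.33 ± 0.38 for RNU12, in mutant and WT, with adjusted p from 0.37 to 0.905. Without WT input 2 the WT values were 0.16 ± 0.27 and 0.25 ± 0.19, not called.

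**Figure D2:**
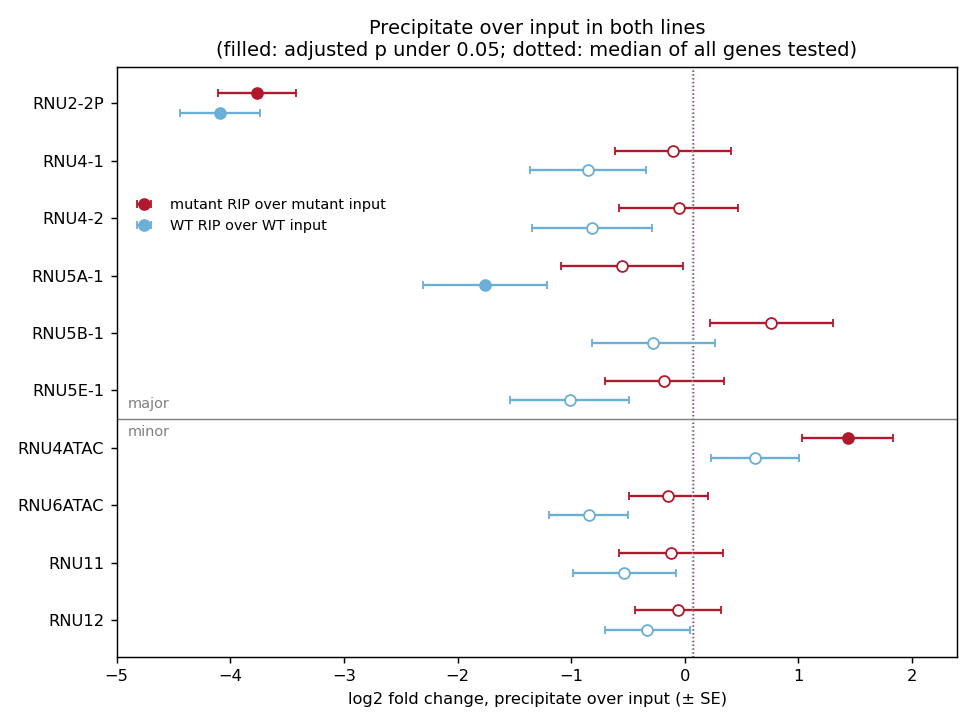
Log2 fold change of each snRNA gene in mutant RIP over mutant input (red) and WT RIP over WT input (blue), with SE as bars; filled points have an adjusted p under 0.05 and dotted lines are the medians of all genes tested, 0.07 and 0.06. RNU2-2P stands apart at −3.76 and −4.09, and with scaling by total library size instead of TMM every open point is positive.

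**Figure D3:**
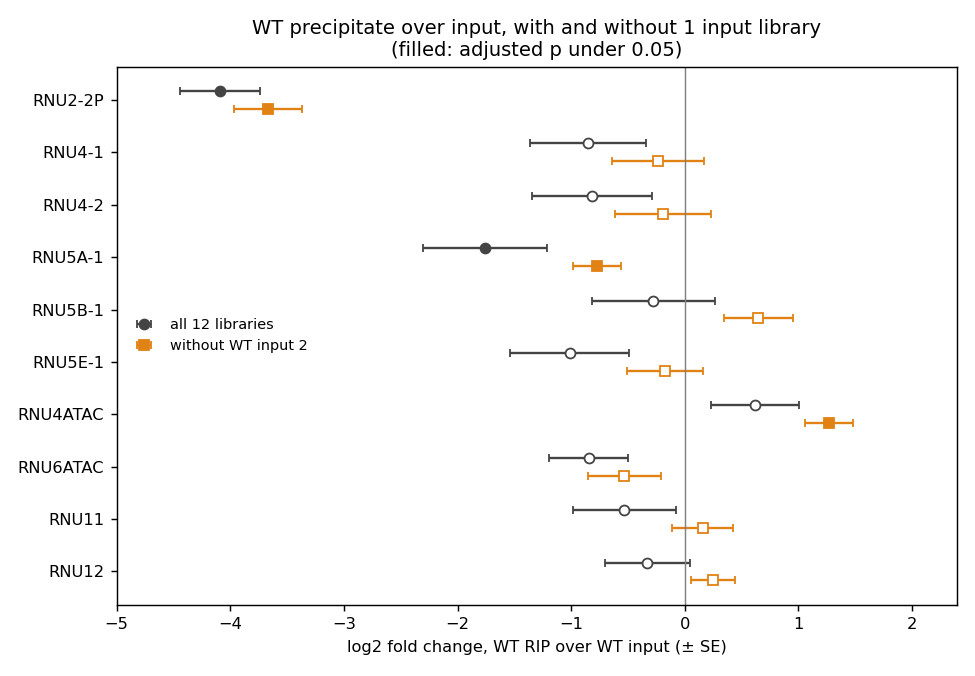
Log2 fold change in WT RIP over WT input with all 12 libraries (grey circles) and without WT input 2 (orange squares), with SE as bars and filled points for an adjusted p under 0.05. WT input 2 was the highest WT input for all 10 members, so leaving it out raises all 10 values. RNU4ATAC then becomes a call at 1.27, with WT RIP 2, the highest WT precipitate for all 10, kept.

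Scaling sets where the middle of these comparisons lies. With total library size in place of TMM, the median of all genes moved to 1.38 in mutant RIP over mutant input and to 1.12 in WT RIP over WT input, and 9 and 4 members were then called higher. Relative to that median, RNU2-2P was at −3.86 and −4.12, RNU4ATAC at 1.34 and 0.63, and RNU5A-1 at −0.65 and −1.70, against −3.84 and −4.16, 1.36 and 0.56, and −0.63 and −1.82 with TMM. Ratios of counts within a library do not depend on this scaling. They are given below in percent with no test, since 3 against 3 libraries cannot reach an exact permutation p below 0.1, and only their change between groups is described, because counts of genes of different length are not levels.

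Ratios of RNU12, RNU11 and RNU4ATAC to their major counterparts were higher in the precipitates. The denominators RNU2-2P (−3.76 in mutant, −4.09 in WT) and RNU1-1 (−2.37 and −2.56) were themselves called lower on the log2 scale. RNU12 and RNU11 were not called in either line. No ratio of RNU6ATAC to U6 was computed. RNU12 had 2.99%, 2.44% and 2.44% of the counts of RNU2-2P in mutant RIP, against 0.218%, 0.161% and 0.215% in mutant input, and 3.40%, 2.72% and 2.19% in WT RIP, against 0.183%, 0.215% and 0.171% in WT input. The groups did not overlap, and the means differed 13.2-fold in mutant and 14.6-fold in WT. RNU11 to RNU1-1 was 0.756% ± 0.149 in mutant RIP against 0.161% ± 0.00202 in mutant input, and 0.801% ± 0.0816 in WT RIP against 0.189% ± 0.0166 in WT input, 4.70 and 4.23 times apart. RNU4ATAC to the sum of RNU4-1 and RNU4-2 was 0.773% ± 0.190 in mutant RIP against 0.259% ± 0.0562 in mutant input, and 0.825% ± 0.209 in WT RIP against 0.279% ± 0.0424 in WT input, 2.99 and 2.95 times apart. In each of these ratios all precipitates were above all inputs of their line.

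The sum of the 4 minor RNAs was 3.24% ± 0.460 of the sum of the 6 major ones in mutant RIP against 0.433% ± 0.0678 in mutant input, and 3.38% ± 0.457 in WT RIP against 0.507% ± 0.0340 in WT input. Without RNU2-2P the same ratio was 6.56% ± 1.40 in mutant RIP and 5.98% ± 1.34 in mutant input, and 6.22% ± 1.10 in WT RIP and 4.63% ± 0.876 in WT input, with overlap in both lines. The contrast of the summed classes thus rested on RNU2-2P. As shares of all counts, the major RNAs held 0.636% ± 0.195 in mutant RIP, 0.501% ± 0.152 in WT RIP, 1.89% ± 0.0329 in mutant input and 2.02% ± 0.520 in WT input. The minor RNAs held 0.0200% ± 0.00413, 0.0165% ± 0.00297, 0.00819% ± 0.00116 and 0.0103% ± 0.00342 in the same groups. With protein-coding genes as the denominator the minor RNAs held 0.0304% ± 0.00769 in mutant RIP, 0.0240% ± 0.00613 in WT RIP, 0.0348% ± 0.00295 in mutant input and 0.0343% ± 0.0180 in WT input, so the order of the means of precipitate and input turned round.

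Within each class, members also parted. RNU5A-1 had 85.9%, 82.7% and 75.5% of the counts of RNU5B-1 in mutant RIP, against 207%, 200.1% and 194% in mutant input, and 82.8%, 75.5% and 90.4% in WT RIP, against 231%, 233% and 208% in WT input. The more counted of the pair was RNU5B-1 in all 6 precipitates and RNU5A-1 in all 6 inputs, and the mean ratio in precipitates was 0.406 times that in inputs in mutant and 0.371 times in WT. WT input 2, at 233%, did not stand apart here. RNU5E-1 to RNU5B-1 was lower too, at 66.9% ± 1.86 in mutant RIP against 132% ± 56.1 in mutant input, where library 1 held 197% and the others 99.0% and 101%, and at 77.9% ± 5.79 in WT RIP against 132% ± 12.02 in WT input. The U5 genes together, set against the U4 genes together, overlapped between precipitates and inputs in both lines, at 8.58% ± 1.56 in mutant RIP, 6.95% ± 1.55 in WT RIP, 8.11% ± 1.90 in mutant input and 7.17% ± 1.56 in WT input.

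RNU4ATAC was 54.3% ± 3.62 of RNU6ATAC, the RNA it pairs with, in mutant RIP against 19.0% ± 4.36 in mutant input, and 57.4% ± 7.43 in WT RIP against 19.5% ± 5.53 in WT input, without overlap. It was also higher against RNU11, 2.98-fold in mutant and 2.25-fold in WT, and against RNU12, 2.79-fold and 1.99-fold. RNU11 to RNU12, which sit in 1 particle, overlapped in both lines, at 70.2% ± 7.74 in mutant RIP, 83.4% ± 7.11 in WT RIP, 75.1% ± 11.6 in mutant input and 93.9% ± 7.75 in WT input. RNU4ATAC was thus the member whose ratio to each other minor RNA parted in both lines. RNU6ATAC to RNU11 overlapped in both, and RNU6ATAC to RNU12 overlapped in mutant and lay lower in all WT precipitates than in all WT inputs.

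**Figure D4:**
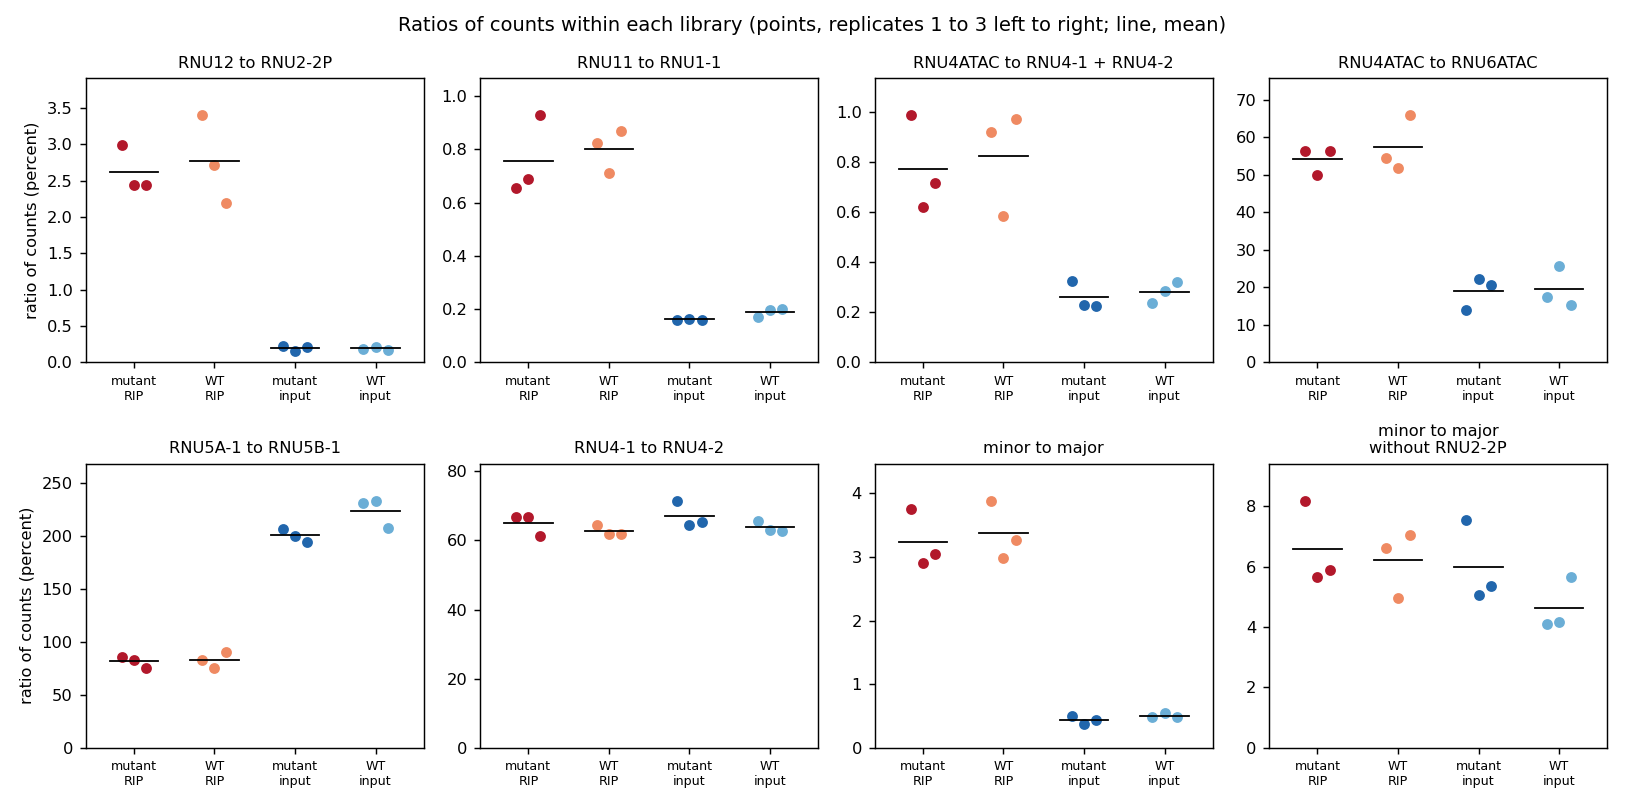
Ratios of counts within each library, in percent, for 8 pairs or sums of snRNA genes in mutant RIP, WT RIP, mutant input and WT input; points are libraries 1 to 3 from left to right and the line is the mean. Precipitates and inputs do not overlap in 6 of the panels, and do in RNU4-1 to RNU4-2 and in minor to major without RNU2-2P.

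Between the mutant and the WT line, no member passed the test in any of the 3 comparisons. In the difference of enrichments, mutant minus WT, edgeR and DESeq2 each called 0 of 10 members, with 0 at an unadjusted p under 0.05 in edgeR, where 0.0653% of all genes were called. All 10 estimates were positive, from 0.27 ± 0.53 (RNU12) to 1.20 ± 0.76 (RNU5A-1), with adjusted p from 0.565 to 0.889. Without WT input 2 they changed: RNU5A-1 was at 0.21 ± 0.28 and RNU4ATAC at 0.15 ± 0.27, and RNU2-2P, RNU5E-1, RNU11 and RNU12 were negative at −0.10, −0.02, −0.29 and −0.32. The SE of these differences ran from 0.44 to 0.76, and an estimate of 1.20 did not pass the test.

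In mutant RIP over WT RIP edgeR and DESeq2 each called 0 of 10 members, where edgeR called 19.6% of all genes, with 1 at an unadjusted p under 0.05 in edgeR, RNU2-2P (0.67 ± 0.31, adjusted p = 0.143). The estimates ran from 0.29 ± 0.38 (RNU4ATAC) to 0.77 ± 0.54 (RNU5B-1), and the libraries of the groups overlapped for all 10. RNU2-2P was called without mutant RIP 1 (0.91, adjusted p = 0.0402). With all libraries it was called higher in the edgeR fit that took up the replicate number (0.69, adjusted p = 0.0218). WT input 2 enters this comparison only through the shared spread and scaling. Without it RNU5A-1 (0.72 ± 0.19, adjusted p = 0.0117) and RNU12 (0.59 ± 0.17, adjusted p = 0.019) were called higher. RNU5A-1 was also called higher in a fit of only the groups compared (0.74, adjusted p = 0.0335). In mutant input over WT input both tools called 0 of 10, with 0 at an unadjusted p under 0.05 in edgeR, where 17.5% of all genes were called. The estimates ran from −0.53 ± 0.41 (RNU4ATAC) to 0.34 ± 0.38 (RNU12). Without WT input 2 RNU12 was called higher in mutant input (0.91 ± 0.20, adjusted p = 0.00428), and RNU5A-1 was at 0.51 ± 0.21 (adjusted p = 0.13). These comparisons share libraries with those of precipitate over input.

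A pair of ratios within libraries also parted by line. RNU4ATAC to RNU12 was 26.6% ± 2.07 in mutant RIP against 34.0% ± 2.72 in WT RIP, and 9.51% ± 1.06 in mutant input against 17.1% ± 0.988 in WT input. RNU6ATAC to RNU12 was 49.0% ± 3.23 in mutant RIP against 59.5% ± 5.49 in WT RIP, and 52.2% ± 14.9 in mutant input against 91.1% ± 19.4 in WT input. In both ratios all mutant libraries were below all WT libraries of the same kind. Of the 16 ratios computed, these were the ones with no overlap between lines in both precipitates and inputs, and none was tested. Both have RNU12 as the denominator, so they are not separate observations. RNU11 to RNU1-1, RNU4ATAC to RNU11 and RNU5A-1 to RNU5B-1 parted by line in the inputs alone. RNU5E-1 to RNU5B-1 and RNU5A-1 to RNU5E-1 did so in the precipitates alone.

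The mRNAs of the proteins that bind these RNAs were read from lists chosen with earlier results known. Of 22 proteins of the major particles, 3 were called higher and 14 lower in mutant RIP over mutant input (median −0.63), and 1 higher and 15 lower in WT RIP over WT input (median −0.57), beside the medians of all genes of 0.07 and 0.06. Of all genes 29.0% were called higher and 28.0% lower in mutant, and 25.6% and 25.4% in WT, and the counts of all the lists are to be read against these shares. SNRNP70, the U1 protein, was at −1.26 ± 0.14 (adjusted p = 4.14e-08) and PRPF31, which binds U4, at −1.81 ± 0.17 (adjusted p = 1.36e-09) in mutant. SART1, of the tri-snRNP, was at −2.31 ± 0.20 (adjusted p = 1.75e-09) in WT. Of 14 proteins of the minor particles, 7 were called higher and 2 lower in mutant (median 0.31), and 6 higher and 1 lower in WT (median 0.29). RNPC3, which bridges U11 and U12, was at 1.47 ± 0.22 and 1.44 ± 0.22, CENATAC, a protein of the minor tri-snRNP, at 1.36 ± 0.16 and 0.98 ± 0.16, and ZMAT5, a U11 and U12 protein, was at −1.25 ± 0.19 in WT. With total library size the counts became 15 higher and 1 lower of the major proteins and 13 higher and 0 lower of the minor ones in mutant, and 13 and 1, and 13 and 0, in WT, where of the 22984 genes 16795 were called higher in mutant and 15761 in WT. Relative to the median of all genes the lists' medians then stood at −0.71 and 0.24 in mutant and −0.65 and 0.24 in WT, near the −0.71 and 0.23, and −0.63 and 0.23, with TMM.

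The Sm and LSm ring proteins held 7 called higher and 2 lower of 14 tested in mutant, and 7 higher and 4 lower in WT. SNRPF was at 2.48 ± 0.17 and 2.54 ± 0.17, SNRPG at 2.12 ± 0.19 and 1.75 ± 0.19, and LSM7 at −1.82 ± 0.14 and −1.57 ± 0.14. Of 9 proteins shared by the 2 spliceosomes, 4 were called higher and 3 lower in mutant and 3 each in WT; PHF5A, of the branch-point complex SF3B, was at 1.21 ± 0.13 and 1.10 ± 0.13. Of 39 factors that make or assemble snRNAs, 18 were called higher and 9 lower in mutant and 10 higher and 9 lower in WT. INTS2, a subunit of the Integrator complex that cuts the ends of snRNA precursors, was at 2.23 ± 0.14 and 1.55 ± 0.14, and USB1, which trims the end of U6, at −2.51 ± 0.14 and −1.85 ± 0.14. With total library size 13 of 14, 7 of 9 and 33 of 39 of these lists were called higher in mutant, and 13, 7 and 32 in WT. Of the 22984 genes 16795 were then called higher in mutant and 15761 in WT. In the difference of enrichments 0 genes of these 5 lists were called in edgeR, where 15 of all genes were. In mutant RIP over WT RIP, with 2268 of the 22984 genes called higher and 2244 lower, 10 assembly factors were called higher and 2 lower, 4 and 3 of the major proteins, 1 and 1 of the minor proteins, 1 and 0 of the shared proteins and 0 of the ring proteins. INTS2 was at 0.85 ± 0.13 (adjusted p = 5.88e-05) and SNRNP200, the U5 helicase, at 0.75 ± 0.16 (adjusted p = 0.0014). With total library size 1 assembly factor was called higher and 1 lower in that comparison. In mutant input over WT input, with 1716 genes called higher and 2301 lower, 2 and 3 assembly factors, 1 and 2 major, 2 and 1 minor, 0 shared and 1 and 0 ring proteins were called. With total library size 0 and 11 assembly factors, 0 and 8 major, 0 and 2 minor, 0 and 4 shared and 0 and 6 ring proteins were called there, among 386 genes higher and 6822 lower.

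Across the 12 libraries, the genes whose log2 level was most like the mean of the major members were SNORD3C (Pearson's r = 0.946), SNORD3B-1, SNORD3B-2, SNORA10 and SNORD3A, all small nucleolar RNAs, out of 11133 genes. Those most like the mean of the minor members were MT-ND6 (r = 0.853), SCARNA1, MTND6P4, SNORA63 and RNU6-7 (r = 0.812). The SNORD3 genes are copies, and MTND6P4 is a pseudogene of MT-ND6, so they may share reads and are not separate observations. The 12 points share scaling and depth and fall into precipitates and inputs, and these values are descriptions. Among members, RNU4-1 and RNU4-2, which are 97.2% identical and may hold the same reads, had r = 0.995. RNU11 and RNU12 had r = 0.912, while RNU4ATAC had 0.0491 with RNU6ATAC and −0.649 with RNU2-2P.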

How the data were processed

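Gene-level RNA-seq counts of 12 libraries were analysed, 3 per group. Each deposited file holds the whole-number read counts of 1 library by Ensembl gene. Per the submitters' processing notes, the tools were bcl2fastq 2.20.0.422, cutadapt, STAR 2.4.0j and featureCounts 1.6.4 with build hg19, and the labels name a stranded total RNA kit. The gene annotation used, whether counting was strand-specific and how reads with several matches were treated are not given in the sources used here.

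Identifiers were matched to GENCODE release 44 on GRCh37 (55538 of 57773 matched), which may differ from the authors' annotation. The fits ran in R 4.3.3 (edgeR 4.0.16 on limma 3.58.1, DESeq2 1.42.0), and sequences, ratios and figures were made in Python 3.11.15 (Biopython 1.88, numpy 2.4.6, pandas 2.3.3, matplotlib 3.10.9). After filterByExpr with a minimum count of 10 and a minimum total of 15, counts were scaled by TMM and fitted in 1 robust quasi-likelihood model of 4 groups in edgeR, with 8 residual degrees of freedom. Benjamini-Hochberg adjustment ran over all 22984 genes, calls were made at 0.05, and SE came from the F statistic. The fit was tested on simulated data. The 5 comparisons were each precipitate over its input, the difference of these, the precipitates and the inputs. Replicates differed by more than sampling noise (chi-square per degree of freedom 13.6 to 203). Whether replicate numbers pair libraries of 2 groups was not settled (correlations of deviations of same-numbered libraries −0.521 to 0.612).

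Alternatives were other scalings, the DESeq2 test, other filters, only the groups compared, replicate blocks and leaving out each library. Members and lists were chosen with earlier results of these data known. All 10 members are named, with genes that hold them, and up to 4 genes per list by smallest adjusted p, of which the text names fewer. The sequences of the U5 genes are not reported here. Likeness was Pearson's r over log2 CPM of genes with a mean of at least 2.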

Additional observations from a re-analysis of the deposited data

How the results depend on the processing

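RNU2-2P kept its direction and call in both lines under every alternative run, RNU4ATAC did so in mutant RIP over mutant input, and RNU5A-1 in WT RIP over WT input lost its call without a filter (−1.73, adjusted p = 0.0525), with only the groups compared (−1.73, adjusted p = 0.103) and without WT RIP 1 or 3. Over all members, comparisons and the 9 alternatives that keep all libraries, 369 fold changes kept direction and side of the threshold, 24 became calls, 2 lost theirs and 25 changed sign. The causes were not tested.

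With total library size, uncalled values in mutant RIP over mutant input turned positive for RNU4-1 (1.18), RNU4-2 (1.23), RNU5A-1 (0.73), RNU5E-1 (1.09), RNU6ATAC (1.13), RNU11 (1.17) and RNU12 (1.22), and 9 members were called higher. In WT RIP over WT input they did so for RNU4-1 (0.25), RNU4-2 (0.28), RNU5B-1 (0.89), RNU5E-1 (0.14), RNU6ATAC (0.24), RNU11 (0.60) and RNU12 (0.79), with 4 called higher. Of all genes 16795 were then called higher and 922 lower in mutant and 15761 and 879 in WT. In the difference of enrichments 2 members and 105 genes were called, in mutant RIP over WT RIP 2 members were called higher, with 776 genes higher and 2529 lower, and in mutant input over WT input 7 members were called lower among 7208 genes (386 higher, 6822 lower), with RNU2-2P at −0.025. The median of all genes was then 0.25, −0.17 and −0.43 in these 3. TMM from protein-coding genes gave 0.030 for RNU4-1, 0.080 for RNU4-2, 0.0077 for RNU11 and 0.069 for RNU12 in mutant RIP over mutant input, and the strict filter (50 counts in 3 libraries) gave 0.024 for RNU4-2 and 0.012 for RNU12. RNU11 in the inputs was 0.0083 with DESeq2 size factors, 0.014 with TMM from protein-coding genes, 0.0061 in the DESeq2 test and 0.11 with the replicate block.

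The number of genes called in the difference of enrichments, 15 here, was 25 with TMM from protein-coding genes, 270 with DESeq2, 185 without a filter and 1 with the strict filter. With only the groups compared, 2 members were called higher and 2 lower in mutant RIP over mutant input, 1 lower in WT RIP over WT input and 1 higher in mutant RIP over WT RIP. Without a filter 1 was called lower in WT RIP over WT input. Whether replicate numbers pair the libraries was not settled. Deviations of same-numbered WT RIP and WT input libraries correlated at 0.30, 0.135 and −0.166. Those of mutant RIP and mutant input correlated at 0.29, −0.0358 and 0.42. With the replicate block, 1 member was called higher (RNU4ATAC, 0.69, adjusted p = 0.0361) and 4 lower in WT RIP over WT input, RNU4-1 (−0.84, adjusted p = 0.0163) and RNU4-2 (−0.81, adjusted p = 0.019) among them, 1 higher in mutant RIP over WT RIP, and 23 genes in the difference. With the block within line, 2 members were called higher in mutant RIP over mutant input, 1 higher and 4 lower in WT RIP over WT input, and 105 genes in the difference. In mutant RIP with WT RIP every library correlated best with its own number, a hint from the data and not the design. The block within line cannot be fitted between the lines, and the difference of enrichments uses all groups.

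Leaving out 1 library at a time gave 11961 to 13212 genes called in mutant RIP over mutant input, with 1 to 2 members higher and 1 to 2 lower. It gave 10401 to 12064 genes in WT RIP over WT input, with 0 to 1 members higher and 1 to 3 lower, and 0 to 75 genes and 0 members in the difference. It gave 2796 to 5129 genes and 0 to 2 members higher in mutant RIP over WT RIP, and 2195 to 4160 genes and 0 to 1 members higher in mutant input over WT input. Members whose sign changed in mutant RIP over mutant input were RNU4-1 from −0.29 to 0.20, RNU4-2 from −0.28 to 0.26, RNU5E-1 from −0.45 to 0.086, RNU6ATAC from −0.30 to 0.16, RNU11 from −0.33 to 0.11, RNU12 from −0.18 to 0.12. In WT RIP over WT input they were RNU5B-1 from −0.58 to 0.65, RNU11 from −0.80 to 0.16, RNU12 from −0.59 to 0.25. In the difference of enrichments, mutant minus WT, they were RNU2-2P from −0.10 to 0.57, RNU5E-1 from −0.021 to 1.14, RNU11 from −0.29 to 0.68, RNU12 from −0.32 to 0.52. In mutant input over WT input they were RNU4-1 from −0.64 to 0.24, RNU4-2 from −0.70 to 0.19, RNU5A-1 from −0.79 to 0.51, RNU5B-1 from −0.57 to 0.65, RNU5E-1 from −0.57 to 0.57, RNU4ATAC from −0.76 to 0.11, RNU11 from −0.28 to 0.65.

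With protein-coding genes as the denominator, major RNAs were at 0.971% in mutant RIP, 0.733% in WT RIP, 8.10% in mutant input and 6.64% in WT input, and minor RNAs at 0.0304%, 0.0240%, 0.0348% and 0.0343% in the same order of groups. Without RNU2-2P the minor to major ratio was 6.56% in mutant RIP, 6.22% in WT RIP, 5.98% in mutant input and 4.63% in WT input. Near-identical copies, host genes and the RNA amount per library limit these values, 3 libraries a group limit the tests, and RNU4ATAC rests on 198 to 1095 counts per library.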
